A study of Mus musculus with 2 samples.

Results

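The 94 protein-coding genes whose GENCODE M21 symbol starts with Kcn, the mouse genes of potassium channels and their accessory subunits, were taken from the 55401 genes counted in 2 heart RNA-sequencing libraries. Of the 94, 44 reached 1 CPM, a count scaled to the TMM-adjusted size of its library, in at least 1 library and make up the measured set. Both libraries were made from hearts of C57BL/6 mice whose aorta had been narrowed by surgery (transverse aortic constriction, TAC), which puts the left ventricle under pressure. One came from mice that also had dioscin for 4 weeks, called the dioscin library, and the other from mice with TAC and no second agent in the label. Dioscin is a plant steroidal saponin. The labels give a treatment protocol worded alike for both samples, so that the TAC library had no dioscin rests on its treatment label only. The mice's age, the dose and the number of hearts per library are not given in the sources used here.

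Each group had 1 library, so no difference could be tested against the spread between mice, and the ratios below have no replicate check. The dioscin library held 17612259 counts in genes and the TAC library 16782741. Ratios are the dioscin library over the TAC library, with a pseudocount of 0.5, and each has an exact 95% Clopper-Pearson interval that covers counting error only. To pass the size rule, a gene needed 1 CPM in a library, a difference of 2-fold or more up or down, and an interval clear of 1.

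Potassium channels let potassium ions leave the cell, which ends the action potential and holds the resting potential. Voltage-gated (Kv) pore subunits repolarise the heart muscle cell, inward rectifiers (Kir) hold its resting potential or answer to ATP and G proteins, and 2-pore-domain subunits carry background current. Calcium- and sodium-activated channels answer to ions inside the cell, and accessory subunits such as the KChIP and KCNE proteins set how much current a pore carries and how fast. In the mouse ventricle, the Kv4 pores with KChIP2 carry the fast transient outward current, whereas the acetylcholine-activated current of Kcnj3 and Kcnj5 is known from atrial and nodal cells.

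The pore of such channels is lined by a selectivity filter whose core is, in most of them, glycine, tyrosine or phenylalanine, and glycine. Codons for a filter of this kind, with leucine also allowed at the middle place, were found in the main coding sequence of 77 of 77 pore and silent subunit genes and of 0 of 17 accessory subunit genes. The pattern also matched a second place in Kcna6 and Kcnh2, so a match alone does not mark a filter. The coding bases around the filter are shown for the 6 pore subunits that passed the size rule and, beside them, for Kcnh2, which lay just below it. Capitals mark the core codons, and Kcnk5 has a filter in each of its pore domains.
Kcnj3: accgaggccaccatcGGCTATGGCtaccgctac
Kcnj5: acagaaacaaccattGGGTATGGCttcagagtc
Kcnk5, first filter: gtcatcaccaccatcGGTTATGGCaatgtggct
Kcnk5, second filter: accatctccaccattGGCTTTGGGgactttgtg
Kcnt2: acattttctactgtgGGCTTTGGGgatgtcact
Kcna4: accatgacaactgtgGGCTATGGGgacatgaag
Kcnd1: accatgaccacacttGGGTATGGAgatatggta
Kcnh2: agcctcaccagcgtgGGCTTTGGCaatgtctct
The core codons begin at codon 145 of the Kcnj3 coding sequence and at codon 151 of the Kcnj5 coding sequence. The sequences are from GENCODE M21 transcripts on GRCm38. The other 3 genes that passed the size rule encode accessory subunits, which have no such filter.

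By the size rule, 5 of these 44 genes (11.4%) were higher with dioscin, 4 (9.09%) were lower and 35 did not pass. The higher ones were Kcnk5, Kcnj3, Kcnj5, Kcna4 and Kcnt2, and the lower ones Kcne3, Kcne1, Kcnd1 and Kcnip4. The 9 genes were 20.5% of the 44. The same rule called 17.1% of the 13219 protein-coding genes at or above 1 CPM (9.8% higher and 7.27% lower) and 19.3% of all 15697 genes at that level (10.5% higher and 8.77% lower), so the share of potassium channel genes lay near the background. Their median log2 ratio was 0.00, against 0.02 for protein-coding genes, with 22 ratios above 1 and 22 below.

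**Figure D1:**
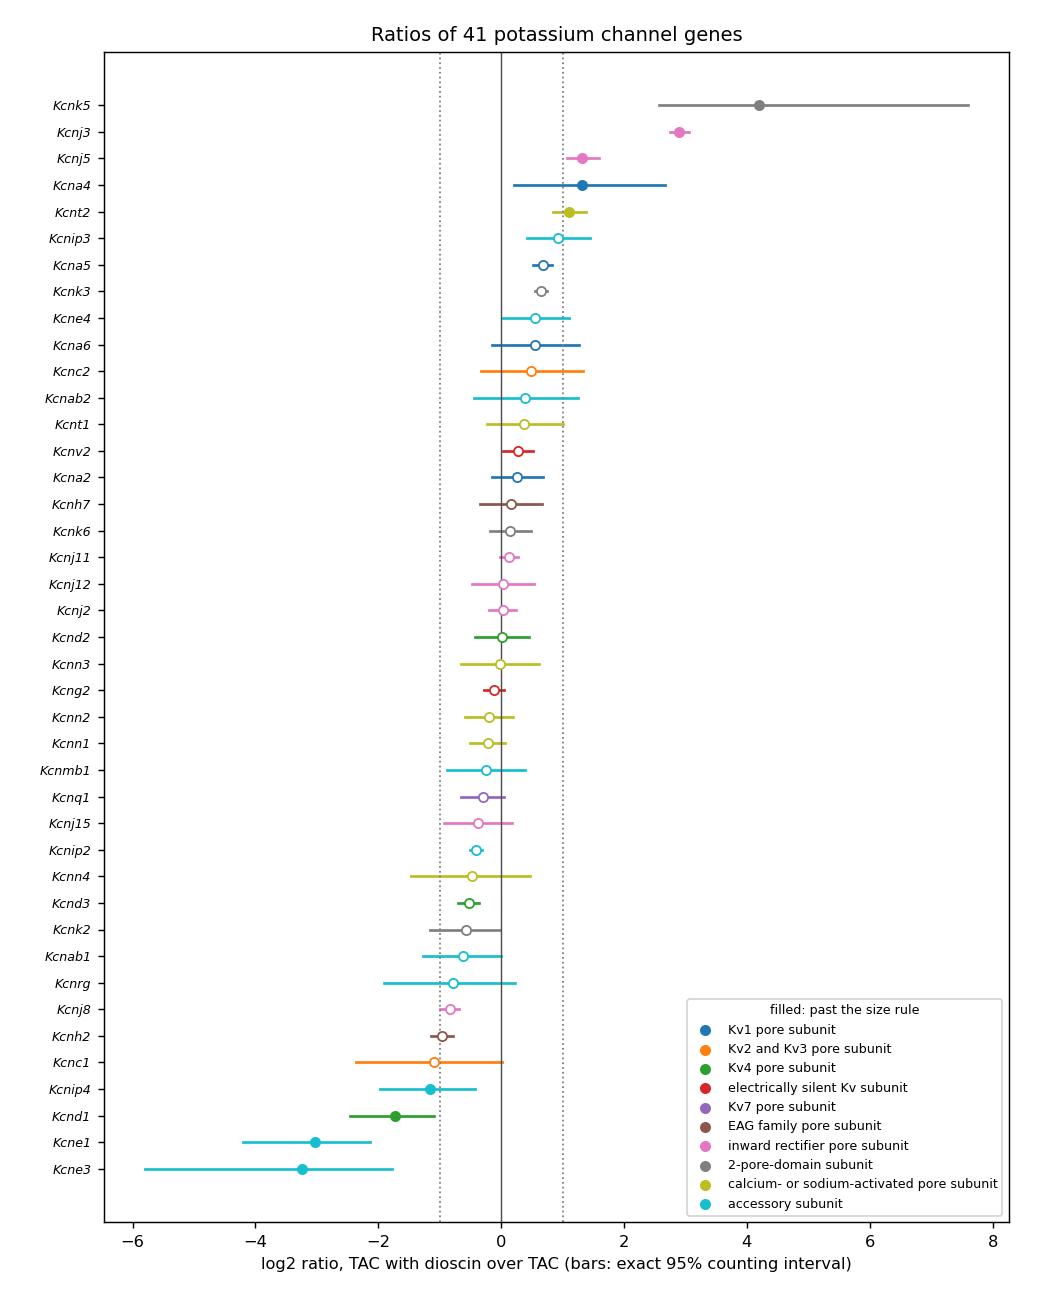
Log2 ratio of TAC with dioscin over TAC for 41 of the 44 potassium channel genes at or above 1 CPM, with exact 95% counting intervals, 1 library per group; filled points passed the size rule and dotted lines mark a 2-fold difference. Kcnk5 and Kcnj3 lie farthest to the right at 4.20 and 2.89, Kcne3 and Kcne1 farthest to the left at -3.25 and -3.03, and most of the others lie between the dotted lines.

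The largest difference in counts was that of Kcnj3, the GIRK1 subunit of the acetylcholine-activated inward rectifier (ENSMUSG00000026824.11; chromosome 2, 55435970 to 55598145 on GRCm38). It had 2875 counts (168 CPM) in the dioscin library and 390 counts (22.6 CPM) in the TAC library, a ratio of 7.43 (6.69 to 8.29). An opposite-strand non-coding gene covers 31.1% of its exonic length, and no count was matched to that gene. Since the kit does not mark strand, reads of the shared bases cannot be assigned between the 2 and may be in the Kcnj3 count. Its partner Kcnj5, the GIRK4 subunit (ENSMUSG00000032034.6; chromosome 9, 32314707 to 32344350), had 420 counts (24.5 CPM) in the dioscin library and 169 counts (9.79 CPM) in the TAC library, a ratio of 2.50 (2.09 to 3.02). Both subunits were thus higher in the dioscin library, Kcnj3 by more than Kcnj5. Per kilobase of exon, the level of Kcnj3 was 6.15 times that of Kcnj5 in the dioscin library (5.55 to 6.83) and 2.07 times in the TAC library (1.73 to 2.50).

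Upstream of these channels, acetylcholine acts through the M2 muscarinic receptor and inhibitory G proteins, and of 11 listed genes of that route 2 were higher and none lower, with a median log2 ratio of 0.11. The background over all measured genes was 10.5% higher, 8.77% lower and a median of 0.01, and nothing is read from the list's count. Chrm2, the M2 receptor, had 83.2 CPM in the dioscin library and 33.1 CPM in the TAC library, a ratio of 2.51 (2.28 to 2.78). Gnao1, the G protein subunit alpha o, had 37.5 CPM in the dioscin library and 17.4 CPM in the TAC library, a ratio of 2.15 (1.87 to 2.48). The other 9, among them the abundant subunit genes Gnai2 (ratio 0.863) and Gnb1 (0.985), did not pass. The remaining GIRK genes were low, Kcnj6 with 14 counts in the dioscin library and 9 in the TAC library, and Kcnj9 with 0 counts in the dioscin library and 1 in the TAC library.

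The dioscin library also carried more RNA of atrial muscle. Of 7 listed atrial markers 6 reached 1 CPM and all 6 were higher. The list's summed level was 17549 CPM in the dioscin library, against 594 CPM in the TAC library, where Mybphl and Bmp10 were at 0 counts. Most of both sums was Nppa, at 12663 CPM in the dioscin library and 588 CPM in the TAC library. In the TAC library Sln had 1 count and Myl7 had 13, against 12433 and 30109 in the dioscin library. The ventricular markers summed to 11176 CPM in the dioscin library and 12542 CPM in the TAC library, with 1 of 5 lower, Irx4. Markers of mesothelium summed to 153 CPM in the dioscin library and 18.5 CPM in the TAC library, with 7 of 8 higher. Markers of fat summed to 31.1 CPM in the dioscin library and 0.811 CPM in the TAC library, with 5 of 7 higher. Of the mesothelium and fat markers the TAC library held no count of Krt8, Krt18, Plin1, Cidec or Retn, and neither library held one of Lep. The 5 higher fat markers reached 1 CPM in the dioscin library only, as did Msln, Upk1b, Lrrn4, Krt8, Krt18, Krt19, Sln, Myl7 and Mybphl. In any list, a gene at 1 CPM in 1 library only could pass only as higher there. Of all measured genes, 10.5% were higher and 8.77% lower by the same rule, and nothing is read from the lists' counts. The part of the tissues of these lists in the ratios of Kcnj3, Kcnj5 and the other potassium channel genes was not tested. In bulk RNA, more or fewer cells of a type and more or less RNA per cell cannot be told apart. General heart muscle markers summed to 42810 CPM in the dioscin library and 38167 CPM in the TAC library with 0 of 6 past the size rule. Skeletal muscle markers summed to 1130 CPM in the dioscin library and 889 CPM in the TAC library with 1 of 6 higher, and the myosins Myh1 and Myh4 were at 0 counts in both. Mitochondrially encoded genes took 25.5% of gene counts in the dioscin library and 31.6% in the TAC library.

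**Figure D2:**
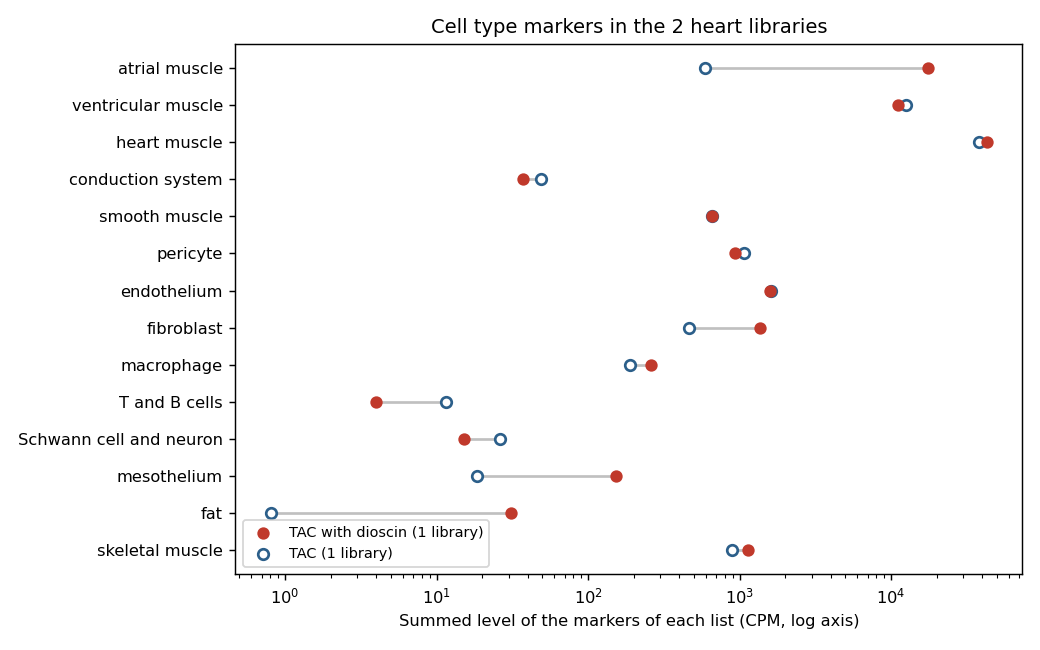
Summed CPM of the markers of each of 14 cell type lists in the dioscin library (filled) and the TAC library (open), 1 library per group, on a log axis. Atrial muscle (17549 against 594 CPM), fat (31.1 against 0.811 CPM) and mesothelium (153 against 18.5 CPM) are the lists with the widest gaps, and heart muscle, smooth muscle and endothelium nearly coincide. Nppa makes up most of the atrial sum in both libraries.

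The promoters of Kcnk5, Kcnj3 and Kcnj5 are shown, 3 of the 5 genes that were higher in the dioscin library. Kcna4 and Kcnt2 were higher there too, and counting error does not separate the ratio of Kcna4 from that of Kcnj5, both 2.50. The windows run from 250 bases before to 50 after the start in RefSeq on GRCm38.p6. Capitals mark matches on either strand to the GC box GGGCGG, the KLF-type box CACCC, the T-box half-site AGGTGT and the Iroquois-type site ACANNTGT.
Kcnj3, chr2:55435720-55436019, plus strand: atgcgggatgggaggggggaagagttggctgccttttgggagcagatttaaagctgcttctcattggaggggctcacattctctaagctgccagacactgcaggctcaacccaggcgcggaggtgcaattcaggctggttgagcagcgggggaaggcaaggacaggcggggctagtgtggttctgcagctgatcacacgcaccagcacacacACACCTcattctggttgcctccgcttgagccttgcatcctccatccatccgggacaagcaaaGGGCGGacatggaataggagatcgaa
Kcnj5, chr9:32344295-32344594, minus strand: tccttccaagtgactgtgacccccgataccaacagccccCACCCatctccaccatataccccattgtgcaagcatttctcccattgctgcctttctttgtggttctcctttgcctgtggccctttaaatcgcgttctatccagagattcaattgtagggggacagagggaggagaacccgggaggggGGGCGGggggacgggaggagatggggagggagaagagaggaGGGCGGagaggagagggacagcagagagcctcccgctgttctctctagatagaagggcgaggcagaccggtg
Kcnk5, chr14:20181733-20182032, minus strand: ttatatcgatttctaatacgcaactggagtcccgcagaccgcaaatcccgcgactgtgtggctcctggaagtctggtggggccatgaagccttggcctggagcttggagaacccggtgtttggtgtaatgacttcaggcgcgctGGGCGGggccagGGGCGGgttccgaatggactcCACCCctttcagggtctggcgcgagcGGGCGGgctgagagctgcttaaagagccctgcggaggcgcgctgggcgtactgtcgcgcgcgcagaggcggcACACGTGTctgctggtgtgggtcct
The Kcnj3 window holds 1 T-box half-site and 1 GC box, the Kcnj5 window 2 GC boxes and 1 CACCC box, and the Kcnk5 window 3 GC boxes, 1 CACCC box and 1 Iroquois-type site. No match overlapped another in these windows. The windows not shown held 3 GC boxes and 4 CACCC boxes for Kcna4, and 3 CACCC boxes and 1 T-box half-site for Kcnt2. Of all 32841 RefSeq promoter windows of this length, 13.7% held the T-box half-site, 35.7% the GC box, 57.5% the CACCC box and 7.38% the Iroquois-type site. A promoter window was found for 31 of the 44 genes and for 7 of the 9 that passed the size rule. The Iroquois-type site was in 4 of the 9 windows of those 7 genes, belonging to Kcne3, Kcnip4 (both of its starts) and Kcnk5, which did not share a direction. A match is a run of letters and no evidence of binding.

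Of 14 listed transcription factors known to bear on cardiac potassium channel expression, 4 were higher and 1 was lower by the size rule, with a median log2 ratio of 0.16, beside 10.5% higher, 8.77% lower and a median of 0.01 over all measured genes. Tbx5, a T-box factor of the atria and the conduction system, had 59.5 CPM in the dioscin library and 6.37 CPM in the TAC library, a ratio of 9.31 (7.67 to 11.5). Klf15, a Kruppel-like factor reported to drive Kcnip2 in a daily rhythm in mice, had 58.0 CPM in the dioscin library and 10.8 CPM in the TAC library, a ratio of 5.37 (4.60 to 6.33). Nkx2-5, a cardiac homeobox factor, had a ratio of 2.12 (1.78 to 2.55). Irx4, the ventricular Iroquois factor, was 4.20-fold lower (3.62 to 4.91), with 12.3 CPM in the dioscin library and 51.9 CPM in the TAC library. Irx5, which sets the transmural gradient of Kcnd2 in mice, had a ratio of 0.707 (0.468 to 1.05), and its relative Irx3 had 0.880 (0.680 to 1.14), neither past the rule.

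Among the other inward rectifiers, the strong rectifiers that hold the resting potential of ventricular muscle were close in both libraries. Kcnj2 (Kir2.1) had 342 counts (20.0 CPM) in the dioscin library and 339 counts (19.6 CPM) in the TAC library, a ratio of 1.02 (0.873 to 1.19). Kcnj12 (Kir2.2) had 70 counts in the dioscin library and 69 in the TAC library, a ratio of 1.02 (0.723 to 1.45). Kcnj15, which encodes Kir4.2, had 52 counts in the dioscin library and 68 in the TAC library, with an interval that includes 1. Per kilobase, Kcnj2 stood at 2.47 times the level of Kcnj12 in the dioscin library and 2.48 times in the TAC library.

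The ATP-sensitive channels couple the membrane potential to energy state and pair a Kir6 pore with a sulfonylurea receptor. Kcnj8, the Kir6.1 pore known from vascular smooth muscle and pericytes, had 552 counts (32.2 CPM) in the dioscin library and 997 counts (57.7 CPM) in the TAC library, a ratio of 0.559 (0.502 to 0.620), short of the 2-fold size. Abcc9 encodes the receptor SUR2 and lies 16247 bases from Kcnj8 on chromosome 6. It had 71.4 CPM in the dioscin library and 125 CPM in the TAC library, a ratio of 0.570 (0.531 to 0.612). Per kilobase, Abcc9 stood at 0.674 times the level of Kcnj8 in the dioscin library and 0.660 times in the TAC library. At the other locus, Kcnj11, the Kir6.2 pore of heart muscle, had 43.6 CPM in the dioscin library and 40.0 CPM in the TAC library. Its ratio was 1.09 (0.984 to 1.21). Abcc8, the receptor SUR1, lies 3758 bases from Kcnj11 on chromosome 7 and had a ratio of 1.25 (1.13 to 1.37). These are pairs of neighbouring genes, and which pore joins which receptor in these hearts was not measured. The ratios of Kcnj8 and Abcc9 thus lay close together and below those of Kcnj11 and Abcc8, with counting intervals that do not overlap. Of 6 pericyte markers, 4 were lower (Cspg4, Notch3, Higd1b and Vtn) and none higher, beside 8.77% lower and 10.5% higher over all measured genes. Their summed level was 927 CPM in the dioscin library and 1066 CPM in the TAC library, most of it from Rgs5 at a ratio of 1.03. Smooth muscle markers summed to 659 CPM in the dioscin library and 654 CPM in the TAC library, with 1 of 7 higher and 1 lower. The part of either cell type in the Kcnj8 and Abcc9 ratios was not tested.

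The 2-pore-domain genes were led by Kcnk3, the acid-sensitive background channel TASK1, which is abundant in atrial muscle. It had 2220 counts (130 CPM) in the dioscin library and 1424 counts (82.5 CPM) in the TAC library, a ratio of 1.57 (1.47 to 1.68) that did not pass the size rule. Kcnk5, the alkaline-activated TASK2 (ENSMUSG00000023243.9; chromosome 14, 20140057 to 20181809), had 45 counts (2.63 CPM) in the dioscin library and 2 counts (0.116 CPM) in the TAC library. Its ratio was 18.4, with an interval from 5.93 to 193 given the 2 counts of the TAC library. Kcnk6 (TWIK2) had 156 counts in the dioscin library and 142 in the TAC library, a ratio of 1.11 (0.877 to 1.40). Kcnk2, the stretch-activated TREK1, had 45 counts in the dioscin library and 68 in the TAC library, a ratio of 0.670 (0.448 to 0.987). Below 1 CPM, Kcnk13 had 10 counts in the dioscin library and 7 in the TAC library, and Kcnk4 had 7 counts in the dioscin library and 10 in the TAC library.

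**Figure D3:**
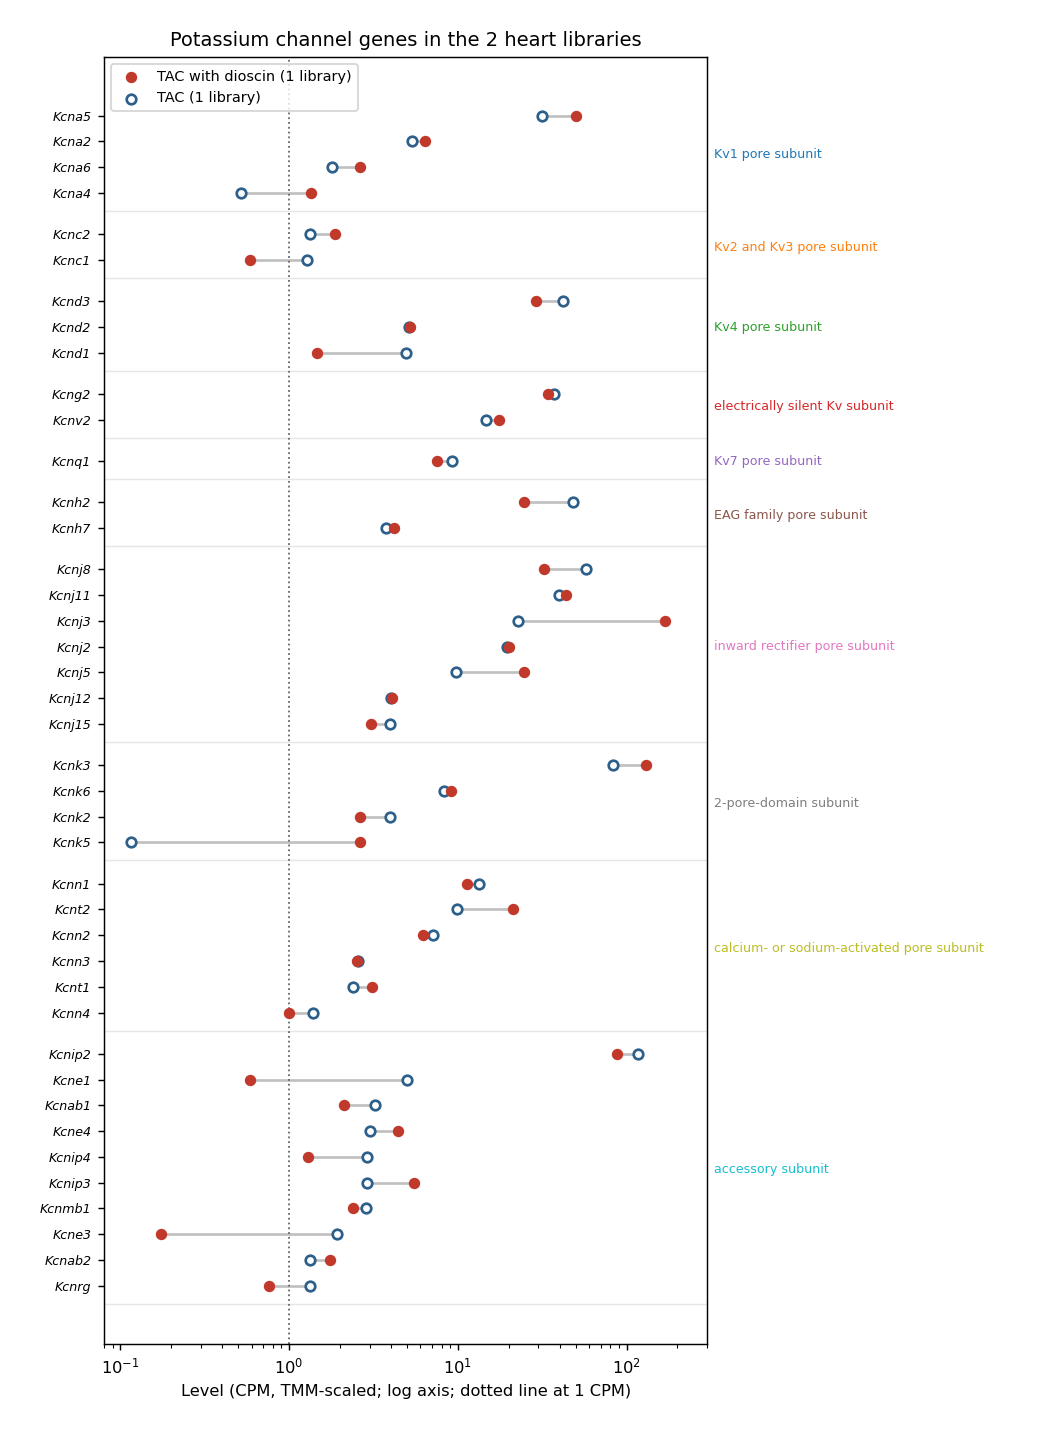
Level of 41 of the 44 genes in CPM on a log axis, grouped by class, in the dioscin library (filled) and the TAC library (open), 1 library per group, with a dotted line at 1 CPM. Kcnj3 (168 against 22.6 CPM), Kcnk5, Kcne1 and Kcne3 have the longest connecting lines, whereas Kcnj2, Kcnj12, Kcnd2 and Kcnn3 nearly coincide.

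The Kv4 pores and their KChIP partners carry the fast transient outward current of the mouse ventricle. Kcnip2 (KChIP2), their main cardiac accessory subunit, had 1491 counts (87.1 CPM) in the dioscin library and 2007 counts (116 CPM) in the TAC library, a ratio of 0.750 (0.700 to 0.802). Kcnd3 (Kv4.3) had 495 counts in the dioscin library and 720 in the TAC library, a ratio of 0.694 (0.617 to 0.779). Kcnd2 (Kv4.2), the pore of the ventricular gradient in mice, had 89 counts in each library and a ratio of 1.01 (0.743 to 1.37). None of these 3 passed the size rule, and the 2 with intervals below 1 were the more abundant. Kcnd1 (Kv4.1; ENSMUSG00000009731.4; chromosome X, 7822289 to 7838280) did pass, with 25 counts in the dioscin library and 85 in the TAC library, 3.32-fold lower (2.14 to 5.50). Per kilobase, Kcnip2 stood at 8.31 times the level of Kcnd3 in the dioscin library (7.50 to 9.21) and 7.69 times in the TAC library (7.06 to 8.38).

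The other KChIP genes were less abundant. Kcnip4 (KChIP4) had 22 counts in the dioscin library and 50 in the TAC library, 2.22-fold lower (1.34 to 3.91). Kcnip3 (KChIP3, also the transcriptional repressor DREAM) had 94 counts in the dioscin library and 50 in the TAC library, a ratio of 1.89 (1.33 to 2.73), short of the size rule. Kcnip1 stayed below 1 CPM with 0 counts in the dioscin library and 10 in the TAC library. The Kv4 partners Dpp6 and Dpp10 were at 0 counts in both libraries. The list of 6 accessory genes outside the Kcn family thus had 1 member at 1 CPM, Lrrc55, a BK channel subunit, with 3 counts in the dioscin library and 40 in the TAC library, 11.5-fold lower (4.21 to 66.8).

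Of the 4 measured Kv1 pores, 1 was higher, beside 10.5% of all measured genes. Kcna5 (Kv1.5), which carries a delayed rectifier of mouse ventricle and of atria, had 856 counts in the dioscin library and 541 in the TAC library, a ratio of 1.60 (1.43 to 1.78). Kcna4 (Kv1.4), the slow transient outward pore of the septum and endocardium in mice, had 23 counts in the dioscin library and 9 in the TAC library, a ratio of 2.50 (1.15 to 6.33). Kcna2 and Kcna6, subunits Kv1.2 and Kv1.6, had intervals that include 1, and an opposite-strand gene covers 39.6% of the exonic length of Kcna6.

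None of the 4 measured Kv2 and Kv3 genes passed the size rule. The measured silent subunits, which form no channel of their own and join other Kv pores, were Kcng2 with 586 counts in the dioscin library and 640 in the TAC library, and Kcnv2 with 301 counts in the dioscin library and 252 in the TAC library. Their ratios were 0.924 (0.824 to 1.03) for Kcng2 and 1.21 (1.02 to 1.43) for Kcnv2. Among the Kv3 genes, known from fast-firing neurons, Kcnc2 had 32 counts in the dioscin library and 23 in the TAC library, and Kcnc1 had 10 counts in the dioscin library and 22 in the TAC library, 2.12-fold lower with an interval that includes 1.

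The slow delayed rectifier joins the Kv7 pore Kcnq1 to the accessory subunit Kcne1, also called minK, and the current is small in adult mouse ventricle. Kcnq1 had 128 counts in the dioscin library and 159 in the TAC library, a ratio of 0.813 (0.638 to 1.03). Kcne1 (ENSMUSG00000039639.7; chromosome 16, 92345982 to 92359468) had 10 counts (0.584 CPM) in the dioscin library and 86 counts (4.98 CPM) in the TAC library, 8.17-fold lower (4.42 to 18.4). Per kilobase, Kcne1 stood at 0.0995 times the level of Kcnq1 in the dioscin library (0.0466 to 0.189) and 0.689 times in the TAC library (0.524 to 0.901). Kcne3 (ENSMUSG00000035165.14; chromosome 7, 100176502 to 100184869), which holds Kcnq1 open in epithelia, had 3 counts in the dioscin library and 33 in the TAC library, 9.49-fold lower (3.42 to 55.6). Kcne4, which inhibits Kcnq1 in expression systems, had 76 counts in the dioscin library and 52 in the TAC library, a ratio of 1.47 (1.02 to 2.14). The KCNE genes thus went both ways, and Kcne2, the neighbour of Kcne1, had 0 counts in the dioscin library and 1 in the TAC library. Kcne1l, the X-linked KCNE gene, had 3 counts in the dioscin library and 0 in the TAC library.

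Kcne1 is known from the mouse conduction system, and of 9 listed conduction markers 6 reached 1 CPM, of which 1 was higher and 2 were lower. Cntn2, a Purkinje fibre marker, had 13 counts in the dioscin library and 219 in the TAC library, 16.1-fold lower (9.56 to 31.9). Hcn4, the pacemaker channel, had 20 counts in the dioscin library and 108 in the TAC library, 5.25-fold lower (3.30 to 9.11). Isl1 and Vsnl1 were at 0 counts in the TAC library. The summed level of the list was 37.0 CPM in the dioscin library and 49.0 CPM in the TAC library. The part of conduction tissue in the Kcne1 ratio was not tested.

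Kcnh2 (ERG1), the pore of the rapid delayed rectifier, had 421 counts (24.6 CPM) in the dioscin library and 828 counts (47.9 CPM) in the TAC library. It was 1.95-fold lower (1.73 to 2.20) and so lay just short of the size rule, which it passed when libraries were scaled by total counts. Its relative Kcnh7 (ERG3) had 72 counts in the dioscin library and 65 in the TAC library. Of the Kv7 genes below 1 CPM, Kcnq3 had 1 count in the dioscin library and 0 in the TAC library, and Kcnq5 had 11 counts in the dioscin library and 0 in the TAC library.

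Of the 6 measured calcium- or sodium-activated genes, 1 was higher, beside 10.5% of all measured genes. Kcnt2, the sodium-activated Slick channel (ENSMUSG00000052726.16; chromosome 1, 140246158 to 140612067), had 363 counts (21.2 CPM) in the dioscin library and 170 counts (9.84 CPM) in the TAC library, a ratio of 2.15 (1.79 to 2.60). Its relative Kcnt1 (Slack) had 53 counts in the dioscin library and 41 in the TAC library, a ratio of 1.30 (0.851 to 2.01). The small-conductance genes Kcnn1, Kcnn2 and Kcnn3 had ratios of 0.859, 0.870 and 0.986, and the intermediate-conductance Kcnn4, known from immune and endothelial cells, 0.721, all with intervals that include 1. Kcnma1, the BK pore, was below 1 CPM with 6 counts in the dioscin library and 3 in the TAC library, whereas its smooth muscle subunit Kcnmb1 had 41 counts in the dioscin library and 49 in the TAC library.

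The remaining accessory genes did not pass the size rule. Kcnab1 and Kcnab2, cytoplasmic beta subunits of Kv1 channels, had 36 and 30 counts in the dioscin library, against 56 and 23 counts in the TAC library, with intervals that include 1. Kcnrg, a regulator that lowers Kv current by blocking assembly, had 13 counts in the dioscin library and 23 in the TAC library. Of 12 listed anchoring and trafficking genes, 4 were higher and none lower, with a median log2 ratio of 0.57, beside 10.5% higher, 8.77% lower and a median of 0.01 over all measured genes. The count of higher genes was 3 with DESeq2 size factors, 3 with TMM over nuclear protein-coding genes and 2 with total-count scaling. Sgk1, a kinase that raises the surface level of several channels, had a ratio of 2.60 (2.45 to 2.75), Ehd3, an endosomal protein, 2.18 (1.56 to 3.12), the ankyrin gene Ank3 2.06 (1.85 to 2.29) and the Z-disc actinin gene Actn2 2.02 (1.98 to 2.06). The abundant ubiquitin ligase gene Nedd4 (1.67) and the LIM protein gene Fhl2 (0.728) did not pass.

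Summed over the family, potassium channel genes had 14323 counts (837 CPM) in the dioscin library and 12122 counts (702 CPM) in the TAC library, a ratio of 1.19 (1.16 to 1.22). Without Kcnj3 the sums were 669 CPM in the dioscin library and 679 CPM in the TAC library, a ratio of 0.984 (0.959 to 1.01). Per kilobase of exon, inward rectifiers held 34.5% of the family's level in the dioscin library and 26.6% in the TAC library. Kv1 pores held 9.59% in the dioscin library and 7.10% in the TAC library. Accessory subunits held 15.7% in the dioscin library and 24.1% in the TAC library, and EAG pores, the class of Kcnh2, 2.72% in the dioscin library and 5.92% in the TAC library.

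**Figure D4:**
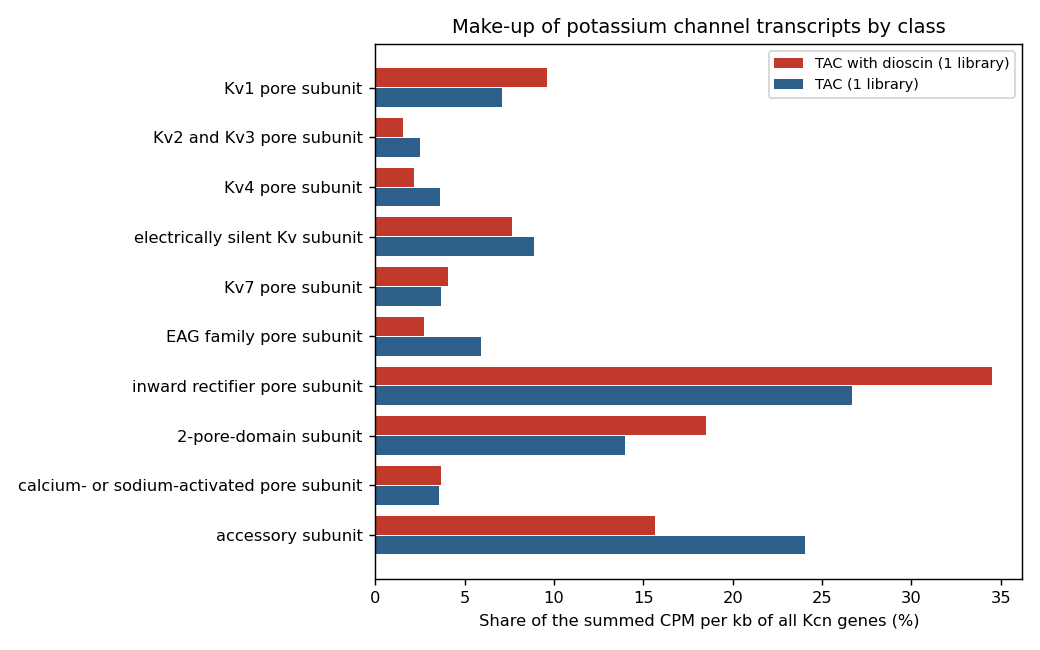
Share of each class in the summed CPM per kilobase of exon of the 94 potassium channel genes, in the dioscin library (upper bars) and the TAC library (lower bars), 1 library per group. Inward rectifiers take 34.5% against 26.6% and accessory subunits 15.7% against 24.1%.

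The order of levels per kilobase differed between the libraries. In the dioscin library Kcnk3 (32.6 CPM per kilobase) and Kcnj3 (32.2) came first, with a ratio between them of 1.01 (0.958 to 1.07) that counting error does not separate, followed by Kcnip2 (25.1), Kcna5 (17.5), Kcnj8 (12.7), Kcnj11 (11.9) and Kcng2 (11.5). In the TAC library Kcnip2 came first (33.4), followed by Kcnj8 (22.7), Kcnk3 (20.7), Kcng2 (12.4), Kcna5 (10.9), Kcnj11 (10.9) and Kcnh2 (9.90). There the per-kilobase ratio of Kcna5 to Kcnj11 was 1.01 (0.898 to 1.13), so counting error does not separate them, and Kcnj3 was the 9th gene. The length is that of all annotated exons of a gene joined, and not that of the transcripts used in the heart.

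**Figure D5:**
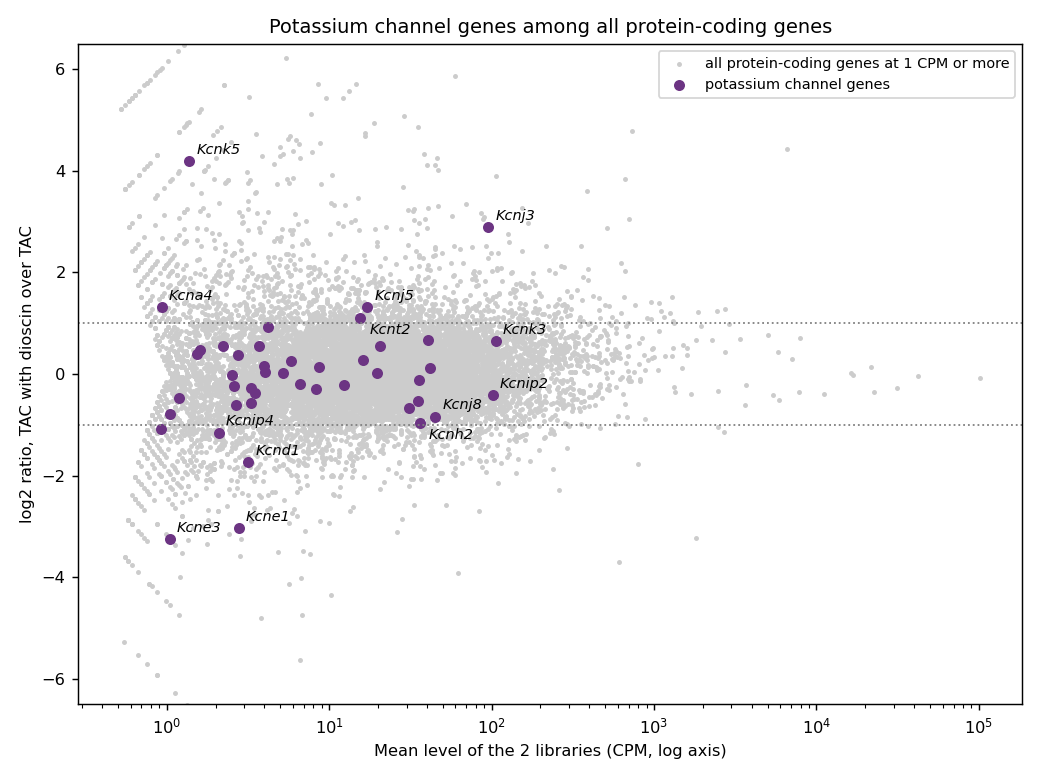
Log2 ratio of TAC with dioscin over TAC against the mean CPM of the 2 libraries (log axis) for protein-coding genes at or above 1 CPM (grey) and the 44 potassium channel genes among them (purple), 1 library per group; 25 grey genes lie beyond the plotted range. Kcnj3, at a log2 ratio of 2.89, is the only purple gene above 50 CPM that lies beyond the dotted 2-fold lines.

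The other 50 members did not reach 1 CPM. Of these, 17 had no count in either library, 7 had a count in the TAC library only, 8 in the dioscin library only, and none exceeded 14 counts in the dioscin library or 15 in the TAC library. A count of 0 allows up to 0.175 CPM in the dioscin library and 0.174 CPM in the TAC library, taking 3 counts as the limit. Of the 44 above the minimum, 37 reached it in both libraries and 2 (Kcna4 and Kcnk5) in the dioscin library only. The other 5 (Kcnc1, Kcnn4, Kcne1, Kcne3 and Kcnrg) reached it in the TAC library only. A gene that reached it in 1 library only had to be higher there. Kcna4, Kcnk5, Kcne1 and Kcne3, which passed the size rule, could thus pass only in the direction they did. The member just inside the minimum was Kcnc1, at 1.27 CPM in the TAC library, and the one just outside was Kcnab3, at 0.869 CPM there. Of the genes that passed, Kcnt2 and Kcnip4 lay nearest to the 2-fold size, and just short of it lay Kcnh2 and Kcnip3. Kcnc1, at 2.12-fold lower, was beyond that size but did not pass because its interval includes 1. Of the 44 genes, 18 share exon bases with another annotated gene, 17 of them with one on the opposite strand.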

How the data were processed

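RNA from frozen hearts was sequenced from TruSeq RNA libraries, a kit that does not mark strand, per the labels' protocols. The deposited files hold raw read counts for each gene, made with HISAT2 2.1.0 and HTSeq on mm10 according to the submitters' processing notes. The authors' annotation and whether HTSeq used strand are not given in the sources used here. Its 5 lines of reads given to no gene (30.0% in no gene, 36.5% and 38.2% with several alignments in the dioscin and TAC libraries) were left out. Of 55401 gene identifiers, 55141 matched GENCODE M21 on GRCm38 without the version number.

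Counts were scaled with TMM in edgeR 4.0.16 (R 4.3.3), and exact intervals came from scipy 1.17.1. With 1 library per group no test was run, and intervals cover counting error only. PCR copies were not told apart, whereas the intervals treat each read as independent. The interval and the size criterion were also run on counts simulated with counting error only, which tells nothing of the spread between mice. Alternatives were total-count scaling, DESeq2 1.42.0 size factors, TMM over nuclear protein-coding genes, other pseudocounts, level minimums and sizes. Levels between genes are compared per kilobase of joined exons. Genes are named when past the size rule or when they carry a main repolarising current. From the partner lists, members past the size rule and a few abundant ones are named. The members, lists and roles were chosen with earlier results of these data known. Some genes counted in the totals are not reported here by name or drawn by name.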

Additional observations from a re-analysis of the deposited data

How the results depend on the processing

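No paired analysis was possible because each group had 1 library. Scaling moved all log2 ratios by at most 0.08. Under the 3 other scalings and the 2 other pseudocounts, the ratio of each of the 44 potassium channel genes stayed inside its counting interval, and the 9 genes past the size rule all kept passing. Scaling by total counts added Kcnc1 and Kcnh2, and TMM over nuclear protein-coding genes added Kcnc1. Without a level minimum 6 were higher and 7 lower (added were Kcnq5, Kcna7, Kcnip1 and Kcnk1). With a minimum of 5 CPM, which 22 members reached, 3 were higher (Kcnj3, Kcnj5 and Kcnt2) and 0 lower, because the lower genes were all under 5 CPM. Of the 44 genes, a size of 1.5-fold gave 8 higher and 7 lower, and 3-fold gave 2 higher and 3 lower. Over all genes, no level minimum gave 2022 higher and 1815 lower, and the 5 CPM minimum 1045 and 695. Of the 15697 genes at or above 1 CPM, 1.5-fold gave 3187 higher and 2815 lower, and 3-fold 781 and 554. How many genes the other minimums left over all genes was not counted, so nothing is read from the members' counts there. With total-count scaling the listed genes past the rule were 0 higher in smooth muscle, 2 lower among Schwann cell and neuron markers and 2 higher among anchoring genes. With few counts, such as the 2 of Kcnk5 in the TAC library, a ratio is known only within a wide interval.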

Other observations

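Of the 5 non-coding antisense genes named for potassium channel genes, 1 reached 1 CPM. Kcnq1ot1, the imprinted antisense transcript of the Kcnq1 locus (ENSMUSG00000101609.2; chromosome 7, 143203458 to 143296549), had 133 counts in the dioscin library and 419 in the TAC library, 3.11-fold lower (2.56 to 3.82). Kcnq1 itself, 3.0% of whose exonic length it overlaps, had a ratio of 0.813. The other 4 had at most 5 counts in the dioscin library and at most 14 in the TAC library, and each had fewer counts in the dioscin library. Markers of Schwann cells and neurons, which express many of the Kv1, Kv3 and Kv7 genes, were low in both libraries, with a summed level of 15.2 CPM in the dioscin library and 26.3 CPM in the TAC library and with Th at 0 counts in both. Of the 9, 5 reached 1 CPM, of which 1 was higher and 1 lower. Prph, which encodes the neuronal filament protein peripherin, had 23 counts in the dioscin library and 4 in the TAC library, a ratio of 5.27 (1.98 to 23.1). Dbh, the noradrenaline-synthesis enzyme, had 0 counts in the dioscin library and 46 in the TAC library. Endothelial markers summed to 1595 CPM in the dioscin library and 1609 CPM in the TAC library with 2 of 7 higher and 1 lower. Fibroblast markers summed to 1359 CPM in the dioscin library and 463 CPM in the TAC library with 2 of 6 higher, Dcn and Lum. Most of both sums was Dcn, at 1062 CPM in the dioscin library and 259 CPM in the TAC library. The median log2 ratio of the fibroblast list was 0.48. Macrophage markers summed to 260 CPM in the dioscin library and 189 CPM in the TAC library with 0 of 6 past the size rule. Markers of T and B cells summed to 3.97 CPM in the dioscin library and 11.5 CPM in the TAC library with 4 of 7 lower.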
